A study of Mus musculus with 23 samples.

Results

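The 10 genes described here encode plasma proteins of the acute phase response. They are 3 serum amyloid A genes (Saa1, Saa2 and Saa4), the orosomucoid genes Orm1 and Orm2, the pentraxin genes Apcs and Crp, haptoglobin (Hp), hemopexin (Hpx) and lipocalin 2 (Lcn2). They were taken by symbol from the deposited table of counts, whose Ensembl identifiers were matched to mouse symbols. All 10 were found among the 49585 genes of the table, and all 10 were among the 14466 genes with enough counts to be tested (a mean of at least 10 over the libraries). RNA came from livers of 23 C57Bl/6J pups, 1 library per pup, at postnatal day 21, except for MetS-Ct_97, which is labelled day 22.

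The groups differ in when a pup met maternal metabolic syndrome (MetS), which was brought on in the dams by diet. Dams had 45% fat (high fat) or 10% fat (control, Ct) in their diet, starting when they were 3 weeks old and lasting 7 or 17 weeks, and the sires ate the control diet. Litters were cut to 5 pups at birth and given to foster dams. MetS-MetS pups (n = 5) were carried and nursed by MetS dams, Ct-MetS pups (n = 6) were exposed during nursing only, MetS-Ct pups (n = 6) before birth only, and Ct-Ct pups (n = 6) at neither time. Every pup was thus fostered, and no group stayed with its own dam. The labels do not state a pup's litter, its sex or how long its dam had been on the diet, so that p-values measure the spread between these animals, some of which may share a litter.

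In the acute phase response, cytokines released at a site of injury or infection, above all interleukin 6 and interleukin 1, reach the hepatocyte and change which plasma proteins it makes. Interleukin 6 acts through STAT3, interleukin 1 through NF-kB, and factors of the C/EBP family work with both. In the mouse Saa1 and Saa2 are among the most inducible of these genes, whereas Saa4 is made constitutively, and Apcs rather than Crp is the strongly induced pentraxin. Hepatocytes are the main source of most of these proteins, whereas Lcn2 is also made by neutrophils and macrophages.

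Library totals ran from 16876460 to 34527932 counts. The lowest median total was that of MetS-MetS, 22564741 counts, against 26997370 in Ct-Ct. The counts behind the members spanned 83610 to 210316 per library for Hpx but 22 to 78 for Orm2, 32 to 282 for Saa2 and 59 to 587 for Lcn2. Values below are counts-per-million (CPM) of the TMM-scaled library size. The TMM factors ran from 0.935 to 0.959 in MetS-MetS, 0.992 to 1.10 in Ct-MetS, 0.961 to 1.02 in MetS-Ct and 0.959 to 1.05 in Ct-Ct. A smaller factor gives a higher CPM for the same count and total. The part of these factors in differences between groups was not tested. The 10 hepatocyte markers, albumin among them, summed to 148582 to 166285 CPM in MetS-MetS, 128341 to 158679 in Ct-MetS, 135745 to 162213 in MetS-Ct and 117893 to 153684 in Ct-Ct, with none at 0. The 13 Kupffer cell and macrophage markers summed to 617 to 1016 CPM in MetS-MetS, 697 to 977 in Ct-MetS, 640 to 719 in MetS-Ct and 483 to 627 in Ct-Ct. In bulk tissue, fewer cells of a type and less RNA per cell cannot be told apart.

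The 3 serum amyloid A genes lie in 1 cluster on chromosome 7, and the sequences just upstream of their starts are shown because Saa1 and Saa2 moved together among the animals while Saa4 went the other way. Each is the 150 bases before the transcription start in the RefSeq table for GRCm38.p6, written 5′ to 3′ on the strand of the gene. Capitals mark matches to the C/EBP letters TTNNGNAA on either strand.
Saa1 (chr7:46742981-46743130, minus strand): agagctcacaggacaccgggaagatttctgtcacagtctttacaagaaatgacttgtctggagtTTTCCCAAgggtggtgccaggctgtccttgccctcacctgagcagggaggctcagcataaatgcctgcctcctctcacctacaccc
Saa2 (chr7:46751683-46751832, plus strand): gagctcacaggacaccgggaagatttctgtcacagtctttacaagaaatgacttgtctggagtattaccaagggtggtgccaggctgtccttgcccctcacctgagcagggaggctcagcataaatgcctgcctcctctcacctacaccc
Saa4 (chr7:46732604-46732753, minus strand): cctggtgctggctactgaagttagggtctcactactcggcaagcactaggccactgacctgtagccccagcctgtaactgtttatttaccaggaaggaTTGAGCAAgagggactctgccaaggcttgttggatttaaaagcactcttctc
Over the 250 bases upstream, Saa1 and Saa2 were identical at 238 of 251 aligned positions (94.8%). Saa1 and Saa4 were identical at 46.3%, and Saa2 and Saa4 at 44.0%. Both lay within the range of the other pairs of member promoters, from 42.7% (Crp and Lcn2) to 53.2% (Saa2 and Lcn2). In those 250 bases Saa1 held 2 matches to the C/EBP letters, Saa2 held 1 and Saa4 held 2. The same letters stand in 36.8% of the 32851 mouse promoters in the table. The STAT3 letters TTCNNNGAA (7.02% of promoters) matched in Apcs alone, and the NF-kB letters (GGG, any 2 bases, TT, any base and CC, in 4.11% of promoters) matched in none, of the 8 members that the table holds. A match is a run of letters and not a measured binding site.

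Levels differed by orders of magnitude between members. Per kilobase of the longest protein-coding transcript, Hpx, which carries free haem, averaged 3236 ± 483 CPM per kb (SD, n = 23 libraries). Hp, which binds haemoglobin set free in plasma, averaged 1849 ± 372. The pentraxins Apcs and Crp followed at 317 ± 81.2 and 278 ± 57.1 CPM per kb, and Orm1, a carrier of small lipophilic molecules, at 141 ± 74.6. Saa4 stood at 78.3 ± 30.9 CPM per kb, above Saa1 at 21.7 ± 8.95 and Saa2 at 6.94 ± 3.78. Lcn2, which binds bacterial iron carriers, was at 9.58 ± 5.55 and Orm2 at 2.43 ± 0.745 CPM per kb. Among these 3 serum amyloid A members the constitutive Saa4 was the most abundant per length.

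Close copies limit what the counts can tell apart. Of the stretches of 50 bases in the Saa1 transcript, 14.8% also occur in another gene, mostly Saa2, and of those in Saa2 9.12%. For Orm1 and Orm2 the shares were 20.4% and 22.7%. Saa4 and Crp shared 1.08% and 0.911%, and Apcs, Hp, Hpx and Lcn2 shared none. The sources used here do not say how reads with several matches were counted, so the split between Saa1 and Saa2, and between Orm1 and Orm2, is uncertain. With the counts of each pair added together, neither sum passed the test in any of the 9 comparisons.

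**Figure D1:**
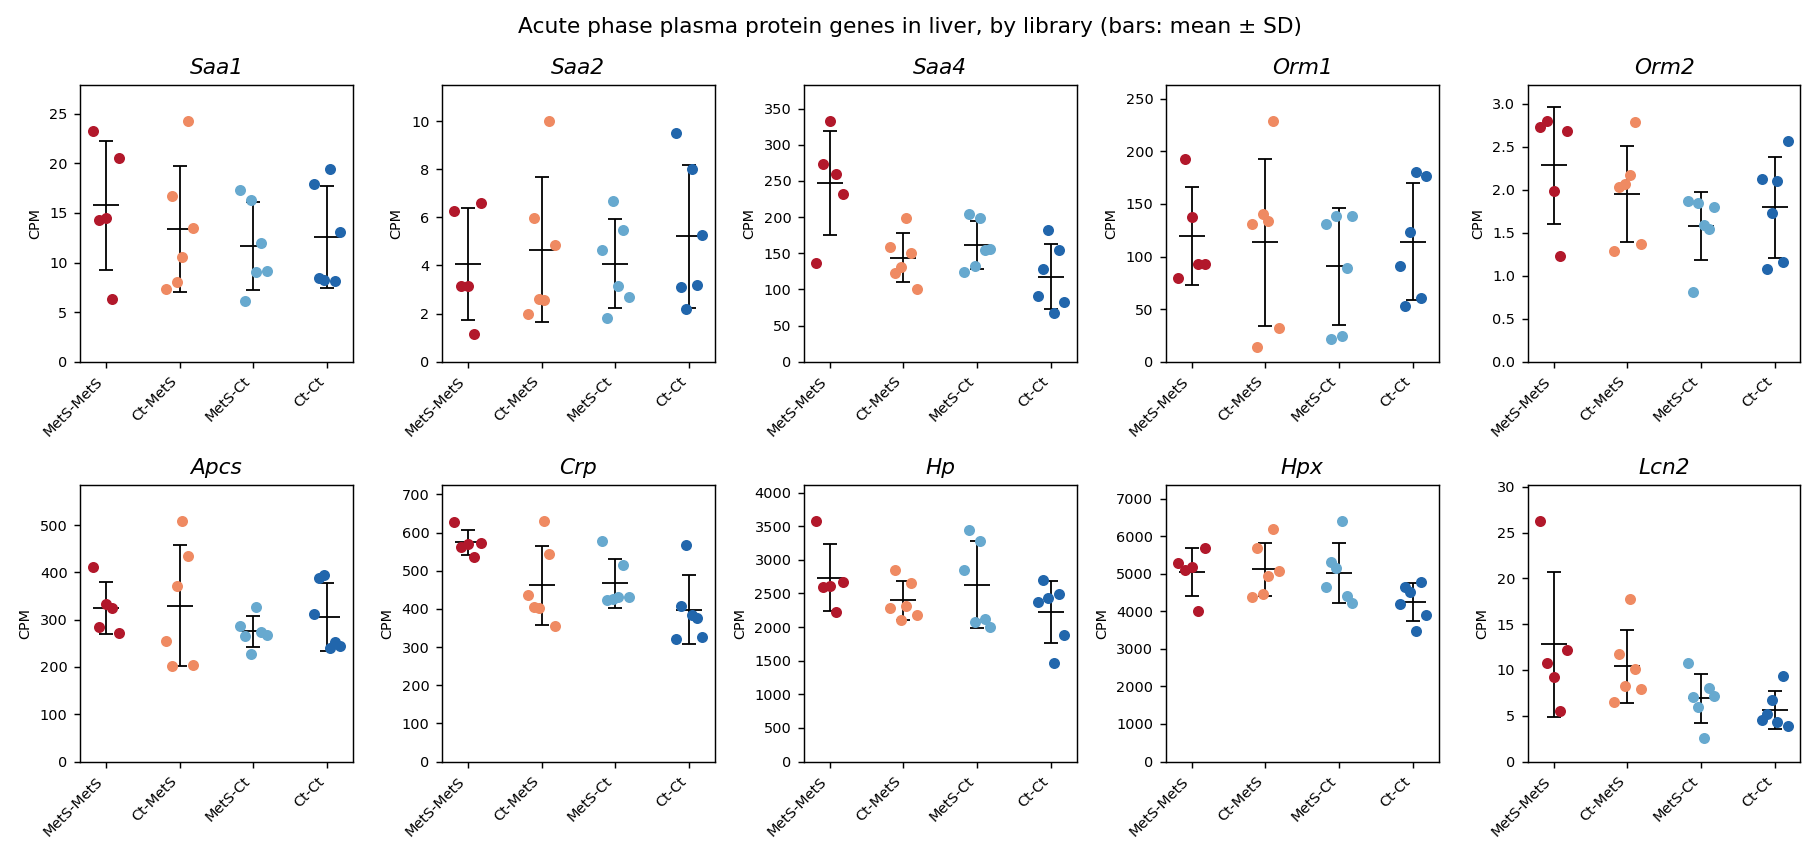
Level of each of the 10 genes in CPM (y axis) in every library, by group from MetS-MetS on the left to Ct-Ct on the right, with points for libraries and bars for the group mean ± SD. Saa4 is highest in MetS-MetS, at 247 ± 72.0 CPM against 118 ± 44.8 in Ct-Ct, and Orm1 falls to 14.3 CPM in 1 Ct-MetS library.

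Pups exposed at both times differed from Ct-Ct in 2 of the 10 genes, Saa4 and Crp, both higher. Across all tested genes 5.78% passed in this comparison, 3.06% as higher. The test was edgeR's quasi-likelihood test with Benjamini-Hochberg adjustment over the 14466 genes and a threshold of 0.05. DESeq2 called 3 of the 10 and limma-voom 2, and 3 had an unadjusted p under 0.05 in edgeR, where 24.4% of all genes did. The median log2 fold change of the 10 genes was 0.31, against −0.0038 over all tested genes. The estimate was positive for 9 of the 10, Saa2 being the exception. The hepatocyte markers moved the same way, with a median of 0.27 over 10 genes, 5 of them at an unadjusted p under 0.05 and 0 past the adjusted threshold in edgeR (2 in DESeq2, 0 in limma-voom). The part of hepatocyte content in the values of Saa4 and Crp was not tested.

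Saa4, an apolipoprotein of high density lipoprotein, had 136, 273.5, 333, 259.9 and 232 CPM in the 5 MetS-MetS livers. The lowest, median and highest values were 100.2, 141 and 199 CPM in Ct-MetS, 124, 155 and 205 CPM in MetS-Ct, and 67.7, 109.1 and 182 CPM in Ct-Ct. In MetS-MetS 4 of 5 livers lay above every library of the other 3 groups, and the fifth, MetS-MetS_39, lay within the Ct-Ct range. Saa4 rose 2.10-fold in MetS-MetS relative to Ct-Ct (log2 fold change 1.07 ± 0.24 SE, edgeR adjusted p = 0.0169, higher in 5 of 5 libraries). The call was kept in each of 23 fits that left out 1 library, with adjusted p from 0.00651 to 0.049. It was missed with the MetS-MetS and Ct-Ct libraries alone in the fit (adjusted p = 0.0527).

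With 1 exposure Saa4 took intermediate means, in the order MetS-MetS, MetS-Ct, Ct-MetS and Ct-Ct, and each neighbour in that order overlapped the next within 1 SD. MetS-Ct pups averaged 161 ± 33.6 CPM (SD, n = 6), which gave a log2 fold change of 0.46 against Ct-Ct (edgeR adjusted p = 0.825). Ct-MetS pups averaged 144 ± 34.1 CPM, with a log2 fold change of 0.29 (adjusted p = 0.647). Prenatal exposure, averaged over both ways of nursing, gave 0.62 ± 0.17 SE with 10 of 11 exposed libraries above the mean of the unexposed ones (edgeR unadjusted p = 0.0012, adjusted p = 0.156, DESeq2 adjusted p = 0.0334). MetS-MetS against Ct-MetS gave 0.78 ± 0.24 SE (edgeR adjusted p = 0.189, DESeq2 adjusted p = 0.0447). The interaction of the exposures was 0.32, with a 95% interval of −0.37 to 1.01 (edgeR adjusted p = 0.916).

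Crp, a pentraxin that binds phosphocholine on microbes and dying cells, had 628, 564, 571, 535 and 573 CPM in the MetS-MetS livers. The lowest, median and highest values were 356, 420.2 and 631 CPM in Ct-MetS, 424, 430.4 and 578 CPM in MetS-Ct, and 322, 379.8 and 569 CPM in Ct-Ct. MetS-MetS was the tightest group, with an SD of 33.9 around a mean of 574 CPM, against an SD of 90.3 around 397 CPM in Ct-Ct. In Ct-Ct 1 library, Ct-Ct_33 at 569 CPM, lay inside the MetS-MetS range, and the other 5 lay below it. Crp rose 1.44-fold in MetS-MetS (log2 fold change 0.53 ± 0.15 SE, edgeR adjusted p = 0.0361, higher in 5 of 5 libraries). This call was lost in 9 of 23 fits without 1 library, at adjusted p up to 0.0831. The 9 were every MetS-MetS library and Ct-Ct_4, Ct-Ct_129, Ct-Ct_130 and Ct-Ct_139, and the log2 fold change stayed between 0.48 and 0.66 in all 23. It was also missed with no filter on low counts (adjusted p = 0.0556) and with the MetS-MetS and Ct-Ct libraries alone (adjusted p = 0.0509).

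**Figure D2:**
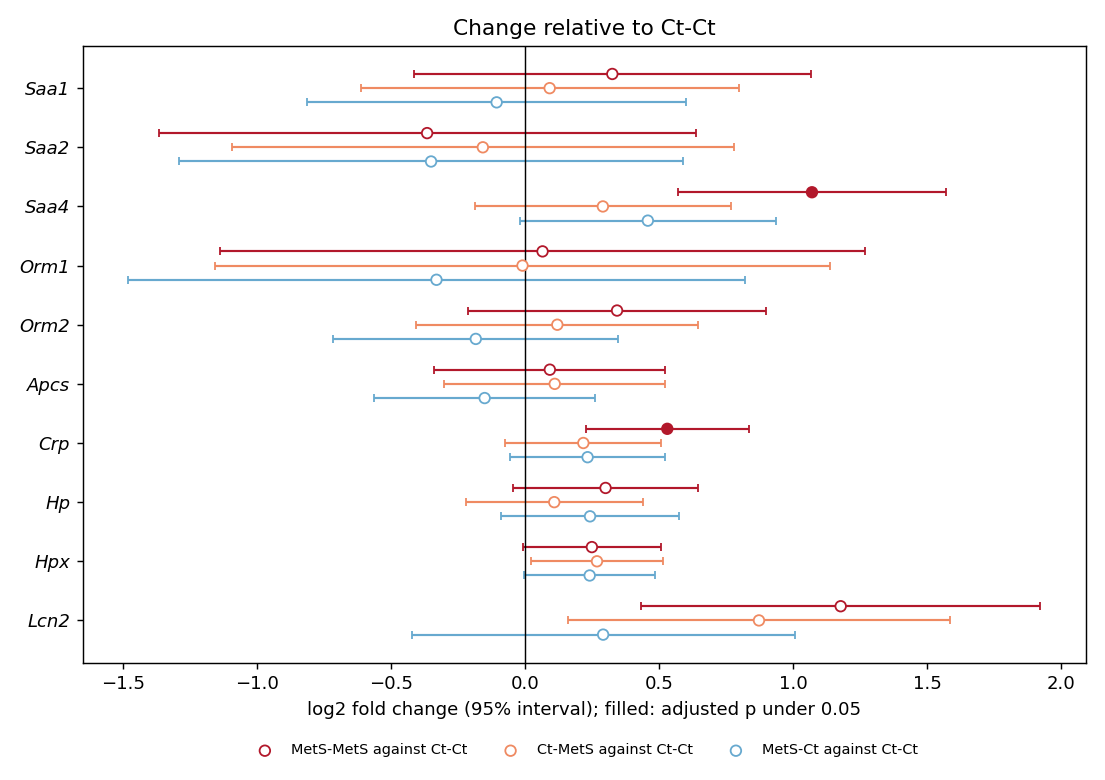
Log2 fold change against Ct-Ct (x axis) with 95% intervals for each gene (rows) in MetS-MetS, Ct-MetS and MetS-Ct; filled points passed an adjusted p of 0.05. Of 30 estimates, those of Saa4 (1.07) and Crp (0.53) in MetS-MetS passed, and the interval of Orm1 ran from −1.14 to 1.27.

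Nursing by a MetS dam, averaged over both prenatal states, was set against nursing by a control dam in 11 and 12 pups. Of the 10 genes 1 passed, Lcn2, as higher, where 4.22% of all genes passed and 2.27% as higher. DESeq2 also called 1 member and limma-voom 0, and 3 members had an unadjusted p under 0.05 in edgeR, as did 21.2% of all genes. The median log2 fold change of the members was 0.23, against −0.0075 over all genes. Lcn2 had 26.3, 10.8, 9.22, 5.52 and 12.1 CPM in the MetS-MetS livers. The lowest, median and highest values were 6.53, 9.18 and 17.7 CPM in Ct-MetS, 2.54, 7.08 and 10.8 CPM in MetS-Ct, and 3.83, 4.85 and 9.35 CPM in Ct-Ct. The groups overlapped, and the highest value, in MetS-MetS_39, was over the next of its group by more than the range of the other 4.

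Lcn2 rose 1.84-fold with postnatal exposure (log2 fold change 0.88 ± 0.25 SE, edgeR adjusted p = 0.0464), with 10 of 11 exposed libraries above the mean of the unexposed ones. The call was lost in 17 of 23 fits without 1 library, at adjusted p from 0.05 to 0.0837, and the 6 that kept it left out MetS-MetS_154, Ct-MetS_24, MetS-Ct_53, MetS-Ct_120, Ct-Ct_33 or Ct-Ct_130. Without MetS-MetS_39 the adjusted p was 0.0837 and the log2 fold change 0.66, and limma-voom gave an adjusted p of 0.0721 and the fit without a filter 0.108. Against Ct-Ct the log2 fold change was 1.18 ± 0.36 SE in MetS-MetS (edgeR adjusted p = 0.0541, DESeq2 0.0143) and 0.87 ± 0.34 SE in Ct-MetS (edgeR adjusted p = 0.235). The 13 neutrophil markers summed to 17.5 to 32.7 CPM in MetS-MetS, 14.9 to 42.1 in Ct-MetS, 15.8 to 52.97 in MetS-Ct and 9.69 to 41.9 in Ct-Ct, and none was at 0. In MetS-MetS_39, the library with the most Lcn2, the neutrophil sum was 17.5 CPM, close to the 17.8 CPM of MetS-MetS_154, which had the least Lcn2 of its group. The libraries with the most and the least Lcn2 had neutrophil sums of 40.8 and 24.2 CPM in Ct-MetS (Ct-MetS_65 and Ct-MetS_24). In MetS-Ct these were 15.8 and 20.8 CPM (MetS-Ct_53 and MetS-Ct_97), and in Ct-Ct 38.6 and 9.69 CPM (Ct-Ct_130 and Ct-Ct_139). The Kupffer cell and macrophage sum of MetS-MetS_39 was 1016 CPM, the highest of the 23 libraries, and that of Ct-MetS_65, next in Lcn2, was 760 CPM. Of the 10 neutrophil markers tested 0 passed with postnatal exposure in edgeR, DESeq2 or limma-voom, and 0 had an unadjusted p under 0.05. Of the 13 Kupffer cell and macrophage markers, 7 were called higher in edgeR with postnatal exposure and 9 in MetS-MetS against Ct-Ct. In MetS-Ct against Ct-Ct 0 were called, but 6 of 13 had an unadjusted p under 0.05 in edgeR, as did 5.9% of all genes. Their median log2 fold change there was 0.27. MetS-MetS against MetS-Ct also had 0 of the 13 called, with a median of 0.25. There 5 of 13 had an unadjusted p under 0.05 in edgeR, as did 14.1% of all genes. Ct-MetS against Ct-Ct had 7 of 13 called higher, where 0.954% of all genes passed. At an unadjusted p under 0.05 stood 12 of 13 there, against 13.9% of all genes. The part of neutrophils or of Kupffer cells and macrophages in the Lcn2 values was not tested.

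**Figure D3:**
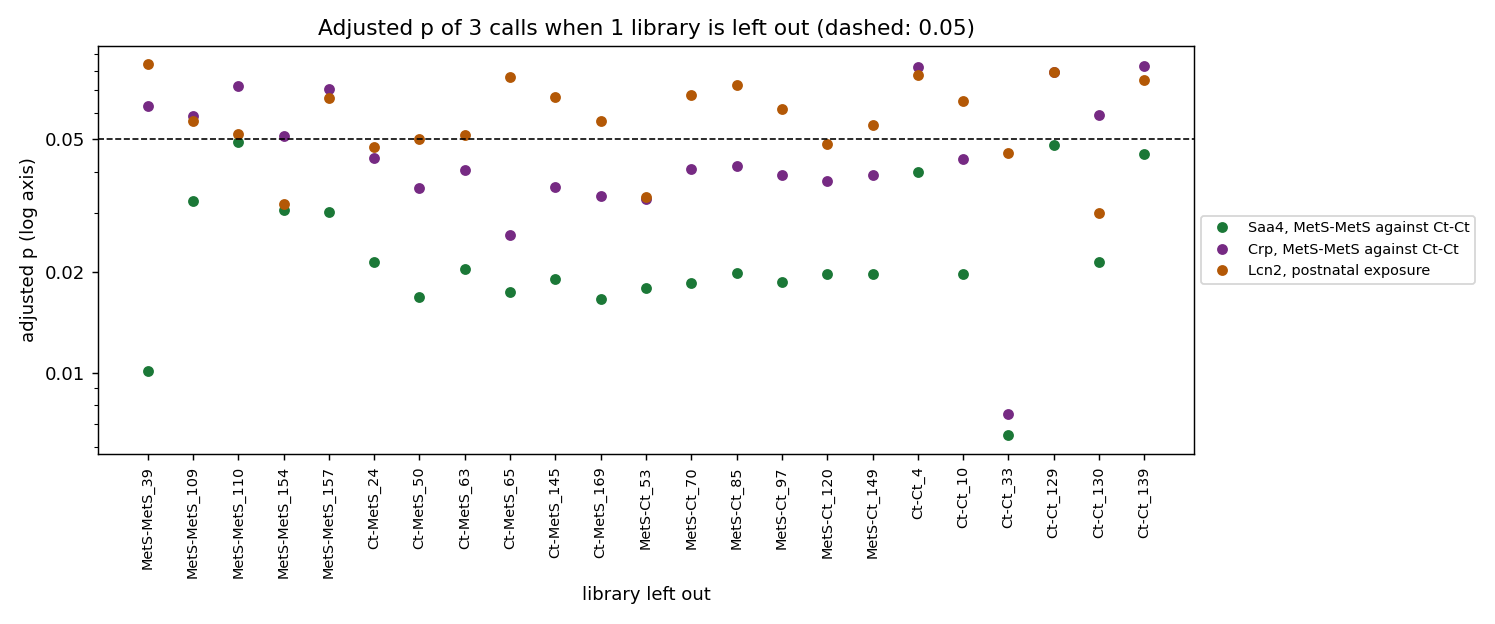
Adjusted p (y axis, log scale) of 3 calls when each library on the x axis is left out; the dashed line is 0.05. Saa4 in MetS-MetS stays under the line throughout, at up to 0.049, while Crp crosses it in 9 and Lcn2 with postnatal exposure in 17 of 23.

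The inducible serum amyloid A genes showed no difference that passed in any comparison. Saa1 had 23.2, 14.3, 14.5, 6.35 and 20.5 CPM in MetS-MetS, and 8.15 to 19.4 CPM in Ct-Ct with a median of 10.8. The ranges overlapped throughout. The log2 fold change in MetS-MetS was 0.33 with a 95% interval of −0.42 to 1.07. Saa2 averaged 4.07 ± 2.32 CPM in MetS-MetS and 5.21 ± 2.96 CPM in Ct-Ct (SD), with a log2 fold change of −0.37 and an interval of −1.37 to 0.64. Saa1 and Saa2 varied more among animals of a group than most genes: edgeR's biological coefficient of variation was 40.3% and 53.3%, against a median of 17.3% over all tested genes.

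Orm1 had the widest spread of the 10. Its coefficient was 64.0%, and its level spanned 16.0-fold between libraries, from 14.3 CPM in Ct-MetS_50 to 229 CPM in Ct-MetS_145, both of 1 group. The MetS-MetS livers had 79.8, 193, 138, 92.9 and 93.3 CPM, and the lowest, median and highest values were 14.3, 132 and 229 CPM in Ct-MetS, 22.0, 110.1 and 138.9 CPM in MetS-Ct, and 53.4, 107 and 179.97 CPM in Ct-Ct. Low livers were MetS-Ct_70 (22.0 CPM), MetS-Ct_97 (24.1) and Ct-MetS_169 (32.4) beside Ct-MetS_50, so that low values stood in both groups with 1 exposure. The log2 fold change in MetS-MetS against Ct-Ct was 0.065, with an interval of −1.14 to 1.27. Orm2, at 0.814 to 2.80 CPM, averaged 2.28 ± 0.68 CPM in MetS-MetS and 1.79 ± 0.59 in Ct-Ct (log2 fold change 0.34, edgeR adjusted p = 0.457).

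The remaining members are abundant and were less variable. Apcs, a pentraxin that binds amyloid fibrils, averaged 326 ± 55.0 CPM in MetS-MetS, 329.7 ± 128.7 in Ct-MetS, 275 ± 32.1 in MetS-Ct and 305 ± 71.9 in Ct-Ct (SD). Its log2 fold change in MetS-MetS was 0.092, with an interval of −0.34 to 0.52. Hp averaged 2737 ± 503 CPM in MetS-MetS, 2397 ± 291 in Ct-MetS, 2629 ± 649 in MetS-Ct and 2223 ± 461 in Ct-Ct. In MetS-MetS it had a log2 fold change of 0.30 ± 0.17 SE (edgeR adjusted p = 0.277). Hpx averaged 5049.7 ± 629 CPM in MetS-MetS, 5117 ± 706 in Ct-MetS, 5021 ± 804 in MetS-Ct and 4249 ± 496 in Ct-Ct. All 3 exposed groups had a mean above Ct-Ct, with log2 fold changes of 0.25 in MetS-MetS, 0.27 in Ct-MetS and 0.24 in MetS-Ct (edgeR adjusted p = 0.219, 0.306 and 0.825), and these 3 estimates share the Ct-Ct libraries.

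The other comparisons gave no call in edgeR. In MetS-Ct against Ct-Ct 0 of 10 members passed in edgeR or limma-voom, and 0 of the 6 to which DESeq2 gave an adjusted p (all but Saa1, Saa2, Orm2 and Lcn2); 0 had an unadjusted p under 0.05, where 0% of all genes passed and 5.9% had such a p. Ct-MetS against Ct-Ct had 0 called by any of the tools and 2 at an unadjusted p under 0.05 (Lcn2 and Hpx), where 0.954% of all genes passed and 13.9% had such a p. In MetS-MetS against MetS-Ct 0 passed by any tool, with 2 at an unadjusted p under 0.05 (Saa4 and Lcn2), where 0.415% of all genes passed and 14.1% had such a p. MetS-MetS against Ct-MetS had 0 in edgeR and limma-voom, with 2 at an unadjusted p under 0.05 (Saa4 and Crp), where 0% of all genes passed and 15.6% had such a p. DESeq2 called 1 member there (Saa4), and 73 genes in all, and gave no adjusted p to Saa1, Saa2, Orm2 and Lcn2. MetS-Ct against Ct-MetS had 0 by any tool and 0 at an unadjusted p under 0.05, where 0.076% of all genes passed and 12.6% had such a p. For prenatal exposure 0 passed in edgeR and limma-voom, with Saa4 and Crp at an unadjusted p under 0.05, where 0.00691% of all genes passed and 16.3% had such a p. DESeq2 called 1 member for prenatal exposure (Saa4), and 165 genes in all. The interaction had 0 by any tool, and 0 at an unadjusted p under 0.05, where 0% of all genes passed and 5.44% had such a p.

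Among animals within groups, some pairs of members rose and fell together and others ran against each other. How often pairs of other genes do so was not tested. Pearson's r was taken over the 23 libraries in log2(CPM + 0.5) as the difference from the group mean, and its p came from 100000 two-sided permutations inside groups, with Benjamini-Hochberg adjustment over the 45 pairs. Of these 9 passed, 6 positive and 3 negative, and 6 of the 9 still passed without the 2 libraries farthest from the median. Another 2 pairs passed only without those libraries, Orm1 with Orm2 (r = 0.55, permutation p = 0.00343, adjusted p = 0.0309; 0.51 with all 23, adjusted p = 0.0575) and Apcs with Hp (r = 0.53, permutation p = 0.00562, adjusted p = 0.0361; 0.32 with all 23, adjusted p = 0.28). The points share library depth and scaling, and Saa1 with Saa2 may also share reads. No batch is given in the labels, so no values within batches can be given.

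Saa1 and Saa2 were the closest pair (r = 0.96, p = 1e-05, the smallest the permutations can give, adjusted p = 0.00045, Spearman's rho 0.93 with p = 1e-05, r = 0.94 without Ct-MetS_145 and MetS-MetS_154). Orm2 went with Saa1 (r = 0.76, permutation p = 0.00031, adjusted p = 0.00465, rho 0.77 with p = 0.00023, r = 0.67 without the same 2). Orm2 also went with Saa2 (r = 0.68, permutation p = 0.00146, adjusted p = 0.0164, rho 0.70 with p = 0.00092), and without those 2 libraries r was 0.57 (permutation p = 0.0173, adjusted p = 0.0779), so that the adjusted call was lost. Saa4 ran against both inducible genes. With Saa1 r was −0.62 (permutation p = 0.00462, adjusted p = 0.0231, rho −0.66 with p = 0.00247) and −0.74 without the same 2 libraries. With Saa2 r was −0.64 (permutation p = 0.00364, adjusted p = 0.0205, rho −0.65 with p = 0.00316) and −0.75 without them.

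The haem-binding and haemoglobin-binding proteins formed the next pair. Hp and Hpx had r = 0.75 (permutation p = 0.00016, adjusted p = 0.0036, rho 0.78 with p = 0.00016), and 0.73 without Ct-Ct_129 and MetS-Ct_70. Hp ran against Orm1 (r = −0.58, permutation p = 0.00356, adjusted p = 0.0205, rho −0.62 with p = 0.00467), and without Ct-MetS_50 and MetS-Ct_70, both low in Orm1, r was −0.49 (permutation p = 0.0263, adjusted p = 0.0985). The pentraxins Apcs and Crp had r = 0.68 (permutation p = 0.00273, adjusted p = 0.0205). Their rho was 0.59 (p = 0.0176, adjusted p = 0.0791), and without Ct-MetS_50 and Ct-MetS_65 r was 0.59 (permutation p = 0.0142, adjusted p = 0.0711). Crp and Lcn2 had r = 0.54 (permutation p = 0.00322, adjusted p = 0.0205, rho 0.57 with p = 0.00549), and 0.49 without Ct-Ct_33 and Ct-MetS_65.

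**Figure D4:**
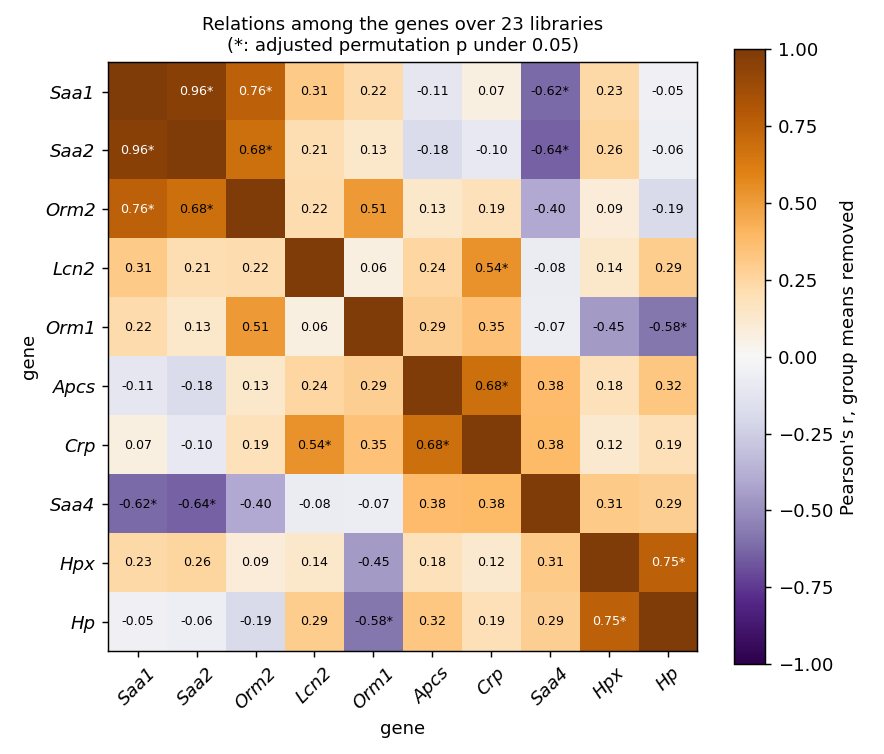
Pearson's r of each pair of members (gene by gene, as colour and printed value) over 23 libraries in log2(CPM + 0.5) with group means removed; a star marks an adjusted permutation p under 0.05. Saa1, Saa2 and Orm2 form a positive block (r = 0.68 to 0.96), and Saa4 is negative with Saa1 (−0.62) and Saa2 (−0.64).

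**Figure D5:**
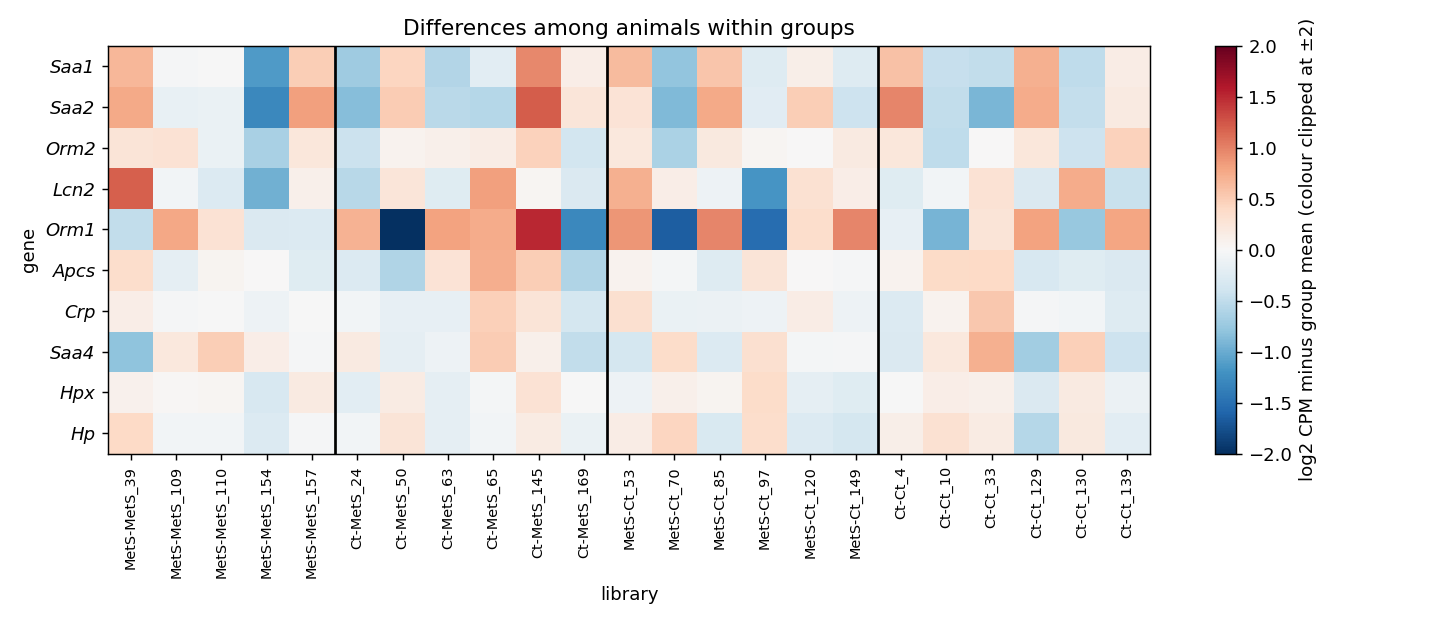
Difference of each gene (rows) from its group mean in log2(CPM + 0.5), for the 23 libraries (columns) by group, with the colour clipped at ±2. Saa1 and Saa2 have nearly the same pattern (r = 0.96), and Orm1 is far below its group mean in Ct-MetS_50, Ct-MetS_169, MetS-Ct_70 and MetS-Ct_97.

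Each member was also set beside the 11212 other well counted genes, and up to 3 of the most alike over the 23 libraries, again as differences from group means, are named as a description. Saa1 was most like Ninl (r = 0.73), Cxcl9 (0.72), an interferon-induced chemokine, and Adgrg6 (0.67). Cxcl9 also led for Saa2 (0.76), before Ly6a (0.75) and Ninl (0.72). For Saa4 the closest were Serpind1 (0.88), the thrombin inhibitor heparin cofactor, Akr1d1 (0.85), a reductase of bile acid synthesis, and Mrpl39 (0.85). Orm1 followed Mup3 (0.95), a major urinary protein gene with near-identical copies, the carboxylesterase gene Ces3a (0.94) and Wfdc21 (0.91). Orm2 was closest to Dcps (0.76), Ctsc (0.75) and Camkmt (0.73). Crp followed F9 (0.94), which encodes coagulation factor IX, Cfhr2 (0.89), of the complement factor H family, and Zfp729b (0.87). Apcs was closest to Btf3l4 (0.87), Rtraf (0.85) and Tmem9b (0.83). Hp followed Rbp4 (0.94), the plasma carrier of retinol, Fetub (0.88) and Ist1 (0.88), and Hpx was closest to Polr2h (0.86), Fetub (0.84) and Phyh (0.82). Lcn2 went with Sav1 (0.81) and Ms4a6d (0.78).

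A wider set of acute phase genes was read in the same fit. Of 31 other genes tested that were listed as acute phase, 1 (Vnn1) was higher and 0 lower in MetS-MetS against Ct-Ct (DESeq2 5, limma-voom 1). With postnatal exposure 3 were higher (Vnn1, Steap4 and A2m) and 0 lower (DESeq2 7, limma-voom 2). At an unadjusted p under 0.05 stood 12 of 31 in MetS-MetS and 11 of 31 with postnatal exposure, against 24.4% and 21.2% of all genes. Their median log2 fold change was 0.30 in MetS-MetS, near that of the 10 members. With postnatal exposure it was 0.052, below the 0.23 of the members. Vnn1, a pantetheinase of the cell surface, averaged 52.8 ± 19.7 CPM in MetS-MetS, 40.3 ± 26.1 in Ct-MetS, 13.9 ± 8.13 in MetS-Ct and 11.4 ± 5.28 in Ct-Ct, and rose 4.65-fold in MetS-MetS (edgeR adjusted p = 0.0175) and 3.68-fold with postnatal exposure (adjusted p = 0.00596). Steap4, a metalloreductase, rose 1.29-fold with postnatal exposure (edgeR adjusted p = 0.0299). A2m, a protease inhibitor that is a major acute phase protein in the rat, rose 3.41-fold with postnatal exposure (edgeR adjusted p = 0.0385), with 5.46 ± 2.80 CPM in MetS-MetS, 18.5 ± 17.9 in Ct-MetS, 2.42 ± 1.44 in MetS-Ct and 3.49 ± 3.34 in Ct-Ct.

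Of 15 negative acute phase genes tested, which fall in an acute phase response, 1 was higher and 0 lower in both comparisons (DESeq2 3 in MetS-MetS and 1 with postnatal exposure, limma-voom 0 in both). It was Igfals, which encodes a subunit of the circulating IGF complex, at 147 ± 37.4 CPM in MetS-MetS and 81.7 ± 6.66 in Ct-Ct (log2 fold change 0.85 ± 0.23 SE, edgeR adjusted p = 0.0318). The median of the list in MetS-MetS was 0.21. An unadjusted p under 0.05 in edgeR was held by 6 of the 15 in MetS-MetS and 3 with postnatal exposure, against 24.4% and 21.2% of all genes. Positive and negative acute phase genes thus both had a median above that of all genes.

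Upstream of the members, 21 genes of interleukin 6 and STAT3 signalling gave 0 higher and 1 lower in both comparisons (DESeq2 3 in MetS-MetS and 1 with postnatal exposure, limma-voom 1 in both). That gene was Il22ra1, a receptor chain for interleukin 22, at 3.59 ± 1.17 CPM in MetS-MetS and 7.65 ± 0.857 in Ct-Ct (log2 fold change −1.08 ± 0.26 SE, edgeR adjusted p = 0.02). In MetS-MetS 7 of the 21 had an unadjusted p under 0.05 in edgeR, and 6 of the 21 did with postnatal exposure, against 24.4% and 21.2% of all genes. The median log2 fold change of the list in MetS-MetS was 0.044. Among the 7 in MetS-MetS, Il11ra1 was lower (log2 fold change −0.50 ± 0.16 SE, edgeR adjusted p = 0.0696). Cebpb, a transcription factor of the C/EBP family, was higher, at 144 ± 34.2 CPM in MetS-MetS and 76.8 ± 43.6 in Ct-Ct (log2 fold change 0.90 ± 0.32 SE, edgeR adjusted p = 0.0858). Il6st, the signalling chain shared by receptors of the interleukin 6 family, averaged 180.1 ± 24.6 CPM in MetS-MetS and 148 ± 13.4 in Ct-Ct (0.28 ± 0.11 SE, edgeR adjusted p = 0.12). Of 29 genes of interleukin 1, TNF and NF-kB signalling, 9 had an unadjusted p under 0.05 in MetS-MetS and 6 with postnatal exposure. Past the adjusted threshold 1 was higher in both comparisons (DESeq2 3 and 2, limma-voom 1 in both). This was Il1rn, the antagonist of the interleukin 1 receptor, at 9.47 ± 2.20 CPM in MetS-MetS and 2.34 ± 1.28 in Ct-Ct (log2 fold change 2.02 ± 0.42 SE, edgeR adjusted p = 0.0122). The glucocorticoid response list gave 0 of 12 in edgeR in both comparisons (DESeq2 1 and 0, limma-voom 0 in both). At an unadjusted p under 0.05 stood 2 in MetS-MetS and 1 with postnatal exposure. The median log2 fold change of the list was 0.39 in MetS-MetS and −0.0075 with postnatal exposure. Fkbp5 had the smallest p in MetS-MetS (log2 fold change 1.09 ± 0.35 SE, edgeR adjusted p = 0.0633). With postnatal exposure it was Zbtb16, which was lower (−0.69 ± 0.31 SE, edgeR adjusted p = 0.207). Of 23 receptors and enzymes that clear these proteins or handle haem, 5 had an unadjusted p under 0.05 in MetS-MetS and 6 with postnatal exposure. Past the adjusted threshold 2 were higher in both comparisons (DESeq2 4 and 2, limma-voom 2 in both). Cd36, a scavenger receptor, averaged 58.6 ± 17.3 CPM in MetS-MetS and 33.04 ± 8.79 in Ct-Ct, and Fcgr3, an Fc receptor to which pentraxins bind, 11.1 ± 1.75 CPM in MetS-MetS and 7.18 ± 1.44 in Ct-Ct (edgeR adjusted p = 0.0276 and 0.0255).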

How the data were processed

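Polyadenylated RNA from 23 livers, 1 library each, was sequenced from a directional kit, per the labels' protocols. FastQC, STAR, HTSeq and DESeq2 are named in the submitters' processing notes without versions. The sources used here do not say which step each served, nor the genome build or the use of strand. The authors deposited counts per gene as whole numbers. Their table carries a name that calls them normalised, but they were taken as unscaled, since size factors on them ran from 0.623 to 1.42. Identifiers were matched to symbols for 49326 of 49585 genes.

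Library totals of 16876460 to 34527932 counts set the precision. Libraries of 1 group correlated at 0.961 to 0.991 (Pearson, by pairs) and differed by more than sampling noise (chi-square at least 16.9 per gene). None was thus taken as a technical copy, and each was used as 1 replicate. Such values do not tell littermates from pups of different litters. In MetS-MetS, pairs with MetS-MetS_39 had 79.8 to 89.0 per gene and the other pairs 16.9 to 39.4. Genes with a mean count of at least 10 (14466) were fitted with edgeR 4.0.16 in R 4.3.3 (TMM, robust, 1 mean per group), which was tested on simulated data. Alternatives used DESeq2 1.42.0, limma-voom (limma 3.58.1), DESeq2's size factors in edgeR, no filter, only the libraries compared, summed paralogs and each library left out. Promoter letters come from RefSeq.

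The members, gene lists and marker lists were chosen with earlier results of these data known. All 10 members are described. From each list up to 4 genes could be named by smallest p, and for each member the 3 with the highest r (mean count 50 or more). A gene that the rule takes for Lcn2 is not reported here.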

Additional observations from a re-analysis of the deposited data

Results flagged for a closer look

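Within 40 sets of 5 or 6 libraries (10 genes in 4 groups), 2 held a library that stood apart from the rest of its group by Dixon's criterion, where chance gives about 1 in 20. Orm2 was lowest in MetS-Ct_70, at 0.814 CPM, against a median of 1.70 CPM in MetS-Ct. That liver was also low in Orm1 and Saa1. Crp was highest in Ct-Ct_33, at 569 CPM, against a median of 379.8 CPM in Ct-Ct. Without Ct-Ct_33 the log2 fold change of Crp was 0.66 in MetS-MetS, and with postnatal exposure it was 0.32 with an edgeR adjusted p of 0.0386, against 0.145 with all 23 libraries.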

How the results depend on the processing

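No paired analysis was possible because the animal numbers are not shared between groups. DESeq2's size factors in edgeR changed none of the 90 calls on single members, and no member's called value changed sign under any alternative. In MetS-MetS against Ct-Ct the number of members called was 2, but 1 with no filter on low counts, 0 with only the libraries of the 2 groups, and 1 to 3 when 1 library was left out. MetS-MetS against Ct-MetS and prenatal exposure each had 0 members called in edgeR and 1 in DESeq2, where the calls over all genes were 73 and 165 in DESeq2 against 0 and 1 in edgeR. With postnatal exposure 1 member was called, against 0 in limma-voom, 0 with no filter, and 0 to 2 when 1 library was left out. Over all genes, the 836 calls in MetS-MetS against Ct-Ct became 1346 in DESeq2, 501 in limma-voom and 457 with no filter, and ran from 219 (without Ct-Ct_129) to 1354 (without Ct-Ct_33). The 611 with postnatal exposure became 1038 in DESeq2 and 367 with no filter. With 1 library left out they ran from 349 (without MetS-MetS_154) to 923 (without Ct-MetS_50). In MetS-MetS the called genes of the lists then ran from 1 to 4 (other acute phase), 0 to 3 (negative acute phase), 0 to 3 (interleukin 6), 1 to 3 (interleukin 1), 0 to 4 (clearance) and 0 to 1 (glucocorticoid). With postnatal exposure they ran from 1 to 4 (other acute phase), 0 to 1 (negative acute phase), 1 to 2 (interleukin 1) and 0 to 3 (clearance), and with no filter the negative acute phase and clearance lists had 0. The cause of these changes was not tested. Depth limits Orm2, with 22 to 78 counts per library, and Saa2, with 32 to 282.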

Other observations

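Blood-borne and other cells were followed through marker lists beside the members. Erythroid markers were called higher in 5 of 10 in MetS-MetS against Ct-Ct and 5 of 10 with postnatal exposure. Among all genes 3.06% and 2.27% passed as higher there. In MetS-MetS against MetS-Ct 8 were called higher and in Ct-MetS against Ct-Ct 3, where 0.415% and 0.954% of all genes passed. In MetS-Ct against Ct-MetS 3 were called lower, where 0.076% of all genes passed. MetS-Ct against Ct-Ct had 0 called in edgeR and 3 in DESeq2, with a median log2 fold change of −0.73. There 5 of 10 had an unadjusted p under 0.05 in edgeR, as did 5.9% of all genes. The erythroid sum was 360 to 652 CPM in MetS-MetS, 175 to 420 in Ct-MetS, 156.6 to 266 in MetS-Ct and 245 to 693 in Ct-Ct. It overlapped between MetS-MetS and Ct-Ct. Endothelial markers had 1 of 8 called higher in both comparisons, and stellate cell markers 1 of 8 lower in MetS-MetS and 1 of 8 higher with postnatal exposure. Of 10 lymphocyte, 8 recruited monocyte, 5 cholangiocyte and 4 adipocyte markers tested, 0 were called in edgeR in either comparison. In MetS-MetS 1, 2, 1 and 2 of them had an unadjusted p under 0.05 in edgeR, as did 24.4% of all genes. One of the recruited monocyte markers with such a p was F10, which hepatocytes also express, at 635 ± 24.6 CPM in MetS-MetS and 717 ± 48.9 in Ct-Ct, most of the sum of that list. DESeq2 called 0 of these 4 lists in MetS-MetS, and with postnatal exposure 2 recruited monocyte and 1 adipocyte markers. The adipocyte marker Lep and the monocyte marker Itgam were listed at 0 in every library, as were 4 of 7 pancreatic acinar markers, and none of the 7 was tested. Whether a 0, such as that of Itgam, reflects the tissue or the way the counts were made was not tested.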
